A study of Rattus norvegicus with 4 samples.

Results

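The genes described here are 10 nuclear receptors for steroid hormones, thyroid hormone and retinoids: Esr1, Esr2, Rara, Rxra, Rxrb, Rxrg, Thra, Thrb, Nr3c1 and Nr3c2. Their members on the array are all probe sets whose platform annotation gave 1 gene symbol that was one of these 10. There were 20 such probe sets, out of 7006 probe sets with a single symbol for 4736 genes. On the array each member gene had from 1 to 3 probe sets, and 12 probe sets of 7 genes were bright enough to be tested. The rule used no measured value, but the genes were chosen with earlier results of these data known.

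Testis RNA of male Sprague Dawley rats, an outbred laboratory strain, was measured on Affymetrix arrays (rat U34, set A), 4 in number. In the FSH antibody group, 2 RNA samples came from rats given an antibody raised in sheep against rat follicle-stimulating hormone (FSH) for 4 days. In the control IgG group, 2 RNA samples came from rats given a control sheep immunoglobulin for 4 days. No genetic change is named in the labels for either group. The labels disagree on age: the source names give day 18, the treatment protocol has injections from day 18 and collection on day 22, injections start at day 14 in the series design, and antibody replicate 2 is titled as postnatal day 4. That array was placed in the antibody group by its source name and treatment protocol. The extraction protocol describes a pool of about 20 organs for each RNA sample and calls them ovaries, while each source name says testis and names 1 rat. How many animals a sample stands for is therefore not settled, and the p-values measure the spread between these RNA samples.

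Nuclear receptors are transcription factors that a small hydrophobic hormone switches on. Receptors for thyroid hormone and retinoic acid bind DNA mostly as pairs with a retinoid X receptor, and the steroid receptors bind mostly as pairs of their own kind. In the testis, vitamin A signalling is needed for spermatogonia to differentiate and for spermatocytes to enter meiosis, thyroid hormone limits how long Sertoli cells divide before they mature, and estrogen and glucocorticoid act on germ and somatic cells. FSH, a pituitary hormone, reaches its receptor on Sertoli cells, which support the germ cells, and signals there mainly through cAMP. The comparison asked whether the transcripts of these receptors differ in the testis when FSH is bound by an antibody for a few days.

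Values are scaled linear intensities, and each log2 change is the FSH antibody group minus the control IgG group on the log2(intensity + 16) scale. The added 16 makes log2 changes of dim probe sets smaller than those of the intensities without it. Intensities of different probe sets depend on their probes and were not set against each other. In whole testis, fewer cells of a type and less RNA per cell cannot be told apart. No receptor probe set passed limma's test at a Benjamini-Hochberg adjusted p of 0.05: the count was 0 of 12, where 14 of the 5244 tested probe sets passed (0.267%), 6 of them higher (0.114%) and 8 lower (0.153%). At an unadjusted p under 0.05 there was 1 of the 12, Rxrb, against 8.1% of all tested probe sets. With 2 arrays a group, precision is low throughout.

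As a set, the receptors had slightly higher values after the antibody. The log2 change was above 0 in 10 of the 12 tested probe sets (83.3%), where 55.3% of all tested probe sets were above 0. Its median was 0.21 over the 12 and 0.03 over all tested probe sets. Groups did not overlap in 6 of the 12, all of them higher after the antibody, while 21.9% of all tested probe sets were separate and higher and 15.5% separate and lower. Several of the 12 share a gene or a sequence. With only the brightest tested probe set of each of the 7 genes, 3 were separate and higher (42.9%), 6 changes were above 0 and the median was 0.25. In 5 of the 12 the log2 change was larger than the gap between the arrays of either group, which held for 25.4% of all tested probe sets. The receptor changes ran from −0.10 to 0.55, and 0 of the 12 reached 1.5-fold, where 3.93% of all tested probe sets did.

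Particular arrays were often the extreme ones, while the receptors' median log2 change ran from 0.15 to 0.24 with any 1 array left out. Centred on each probe set's mean, the receptors' median log2 value was 0.114 and 0.102 on antibody replicates 1 and 2. It was −0.038 and −0.174 on control replicates 1 and 2. Antibody replicate 2 was the highest of the 4 arrays in 6 of the 12 tested receptor probe sets and in 30.5% of all tested ones. Control replicate 2 was the lowest in 9 of the 12, in 7 of 7 with 1 probe set a gene, and in 33.8% of all tested ones. The same arrays had the highest and the lowest median log2 value over the whole table, with 5.776 and 5.818 on antibody replicates 1 and 2, against 5.787 and 5.714 on control replicates 1 and 2. With each array centred on its median, 9 of the 12 changes were above 0, where 47% of all tested probe sets were, and 5 were separate and higher, where 17.5% of all were. The receptors' median was then 0.16 and that of all tested probe sets −0.02. The part of the array medians in the receptors' shift beyond this was not tested.

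**Figure D1:**
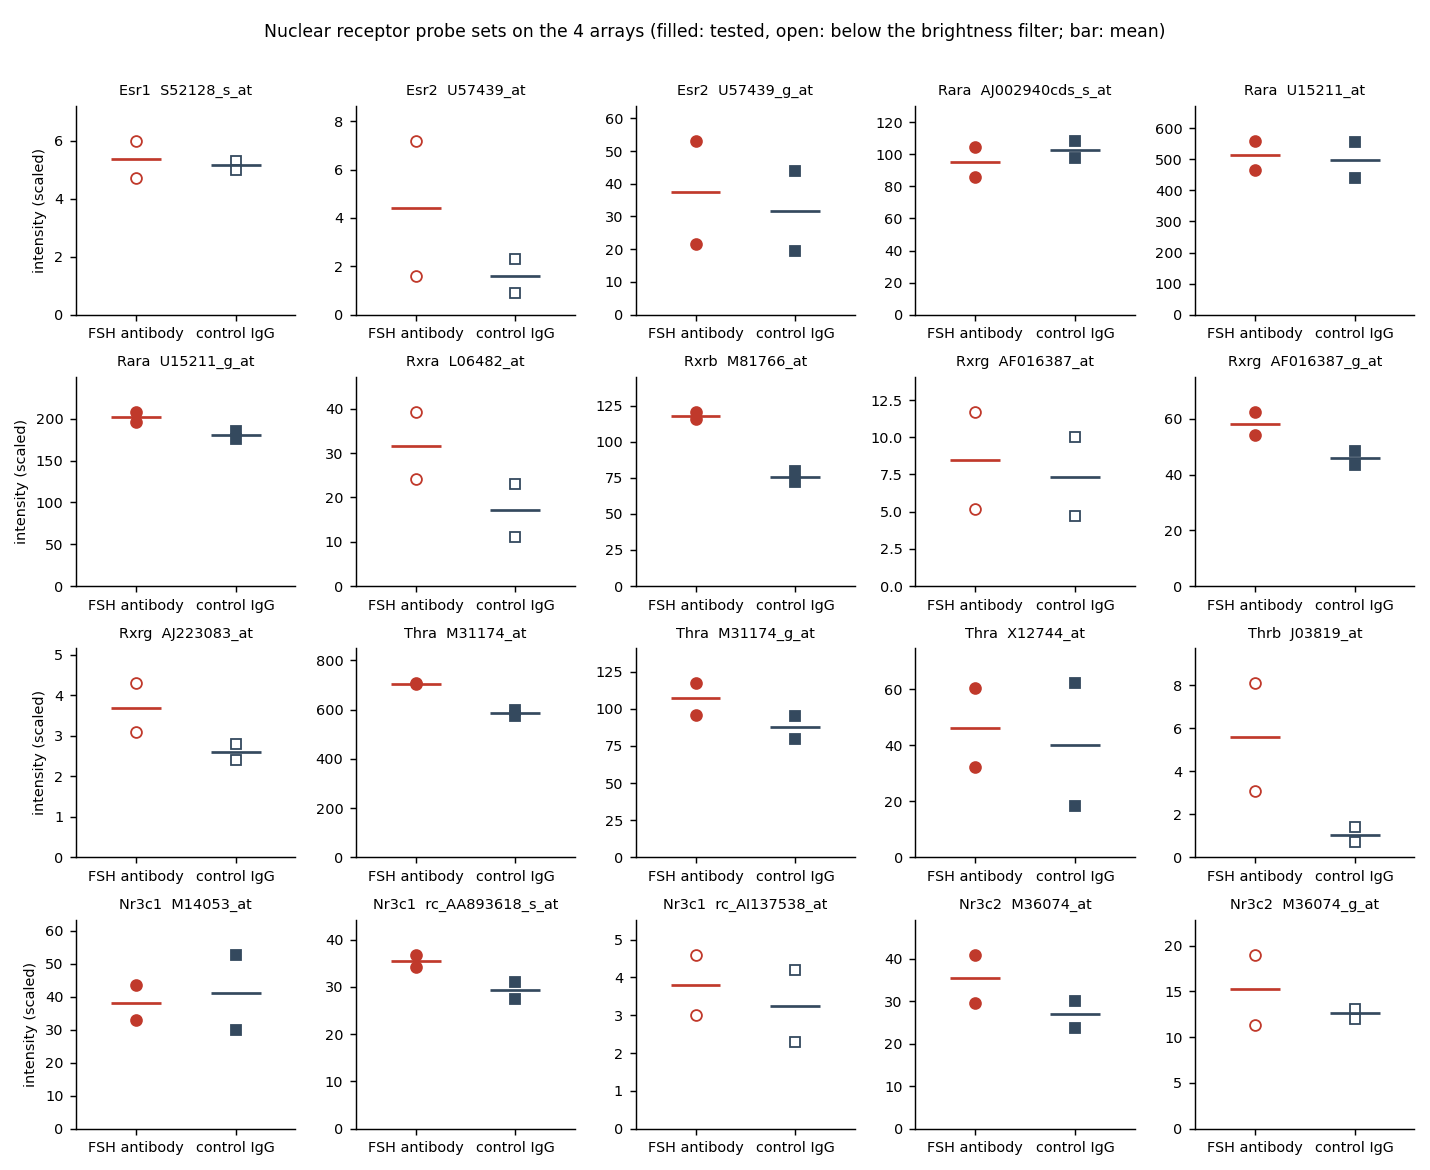
Intensity of the 20 nuclear receptor probe sets on each array, with the FSH antibody group (circles) left of the control IgG group (squares), 2 arrays each. Horizontal bars are group means, each axis starts at 0, and open symbols mark the 8 probe sets below the brightness filter. For Rxrb the antibody arrays stand at 115.7 and 120.6 and both control arrays are lower, while for Esr2 and for the Thra probe set X12744_at the arrays of 1 group lie far apart.

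The retinoid X receptors, the shared partners of the thyroid hormone and retinoic acid receptors, held the widest gap between groups. Rxrb (probe set M81766_at) was at 115.7 and 120.6 on the antibody arrays, against 79.5 and 72.2 on the control arrays. Both antibody arrays were above both control arrays, and the gap between groups was wider than either gap within a group. The means were 118 ± 3.46 after the antibody and 75.8 ± 5.16 in the controls (SD, n = 2 each). The log2 change was 0.55 ± 0.17 (SE), or 1.46-fold with a 95% interval from 1.12 to 1.91. Its unadjusted p by limma was 0.0103 and its adjusted p 0.444, so Rxrb did not pass over all tested probe sets. Under the other settings its log2 change ran from 0.38 to 0.63 and its adjusted p from 0.261 to 0.958.

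The 250 bases before the annotated start of Rxrb are shown because this receptor had the largest tested change. They come from RefSeq (build GRCr8, chr20:4824660-4824909, minus strand), run 5′ to 3′, and capitals mark GC boxes, searched as GGGCGG on both strands.
Rxrb: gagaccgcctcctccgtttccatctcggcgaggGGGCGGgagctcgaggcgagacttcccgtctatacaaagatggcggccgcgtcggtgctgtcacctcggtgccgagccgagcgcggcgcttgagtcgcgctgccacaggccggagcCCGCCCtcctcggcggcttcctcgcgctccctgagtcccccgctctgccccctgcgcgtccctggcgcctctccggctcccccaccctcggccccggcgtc
This window held 2 GC boxes, starting at positions −217 and −101, where −1 is the last base before the start. Neither the full cAMP response element, searched as TGACGTCA, nor the core element of many nuclear receptors, searched as AGGTCA on both strands, was in these letters.

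Rxrg, the retinoid X receptor known mainly from muscle and brain, had 1 tested probe set. AF016387_g_at was at 54.1 and 62.5 on the antibody arrays, against 48.5 and 43.3 on the control arrays. The groups did not overlap, and the log2 change was 0.26 ± 0.19 with an adjusted p of 0.80 by limma. Its companion from the same sequence, AF016387_at, was too dim to be tested, at 5.2 and 11.7 after the antibody and 10 and 4.7 in the controls, and its groups overlapped. The remaining Rxrg probe set, AJ223083_at, lay between 2.4 and 4.3 on every array.

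Rxra, the broadly expressed retinoid X receptor, lay just below the brightness filter, so it has no value in the tested set. Its probe set L06482_at was at 24.1 and 39.3 on the antibody arrays, against 23.1 and 11 on the control arrays. Its mean log2 value of 5.29 was at percentile 39.7 of the table and the filter stood at the 40th, while the dimmest receptor probe set that was tested, M36074_at of Nr3c2, was at percentile 45.7. The antibody arrays were both higher, but the smallest gap between groups was that of 24.1 against 23.1. In the fit without the filter the log2 change was 0.54 ± 0.27, with a 95% interval from −0.11 to 1.18 and an adjusted p of 0.662.

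Thra, the thyroid hormone receptor alpha gene, had slightly higher means after the antibody on 3 probe sets, with the closest agreement between arrays on M31174_at. M31174_at was at 704.6 and 707.3 on the antibody arrays, against 600.1 and 575.6 on the control arrays. The antibody arrays nearly coincided and stood above both controls, with means of 706 ± 1.91 after the antibody and 588 ± 17.3 in the controls (SD, n = 2 each). The log2 change was 0.26 ± 0.16, or 1.2-fold with a 95% interval from 0.932 to 1.53, and limma gave an adjusted p of 0.744.

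M31174_g_at, designed from the same sequence and so not independent, was at 117.2 and 95.9 after the antibody and at 79.8 and 95.5 in the controls. Its log2 change was 0.24 ± 0.19, and the groups were apart only by the step between 95.9 and 95.5. The Thra probe set from another sequence, X12744_at, did not separate the groups, with 60.4 and 32.2 on the antibody arrays and 18.3 and 62.1 on the control arrays. Its control arrays were 1.19 apart on the log2 scale, against a log2 change of 0.23 ± 0.37, and the direction of that change turned when antibody replicate 1 (−0.10) or control replicate 1 (−0.36) was left out.

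The 250 bases before the start of Thra are shown beside those of Rxrb, because the antibody arrays agreed most closely on M31174_at. RefSeq lists 2 starts for Thra in this table, and the one shown is the first (build GRCr8, chr10:84197891-84198140, plus strand), with GC boxes in capitals.
Thra: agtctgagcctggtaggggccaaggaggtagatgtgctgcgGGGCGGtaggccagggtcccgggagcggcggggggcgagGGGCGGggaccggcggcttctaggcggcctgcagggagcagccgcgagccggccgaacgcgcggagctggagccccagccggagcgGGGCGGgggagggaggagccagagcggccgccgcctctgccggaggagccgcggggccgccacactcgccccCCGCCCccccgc
This window held 4 GC boxes, starting at positions −209, −170, −84 and −12, and the other Thra window held 0. RefSeq gave 11 such windows for 9 of the 10 genes, all but Nr3c2, and 6 of the 9 genes had a GC box in at least 1 window: Rara, Rxra, Rxrb, Thra, Thrb and Nr3c1. By window the count was 7 of 11, where 30.5% of all 33469 windows of this length held a GC box. The G and C content was 74.0% in the Rxrb window and 79.6% in the Thra window shown, against a median of 51.2% over all windows. The core element AGGTCA was in 0 of the 11 windows and in 14.1% of all, and TGACGTCA was in 0 of the 11 and in 1.59% of all. These matches describe letters in a window and say nothing of binding.

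Thrb, the thyroid hormone receptor beta gene, was near the bottom of the scale. Its probe set J03819_at was at 8.1 and 3.1 on the antibody arrays, against 1.4 and 0.7 on the control arrays. The antibody arrays were both higher, but all values were far below the filter, which corresponds to an intensity of about 23.6. Without the filter the log2 change was 0.33 ± 0.12, with an unadjusted p of 0.032 and an adjusted p of 0.583 by limma. At such low intensities 72.6% of all probe sets below the filter had a change above 0, and 36.1% were separate and higher.

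**Figure D2:**
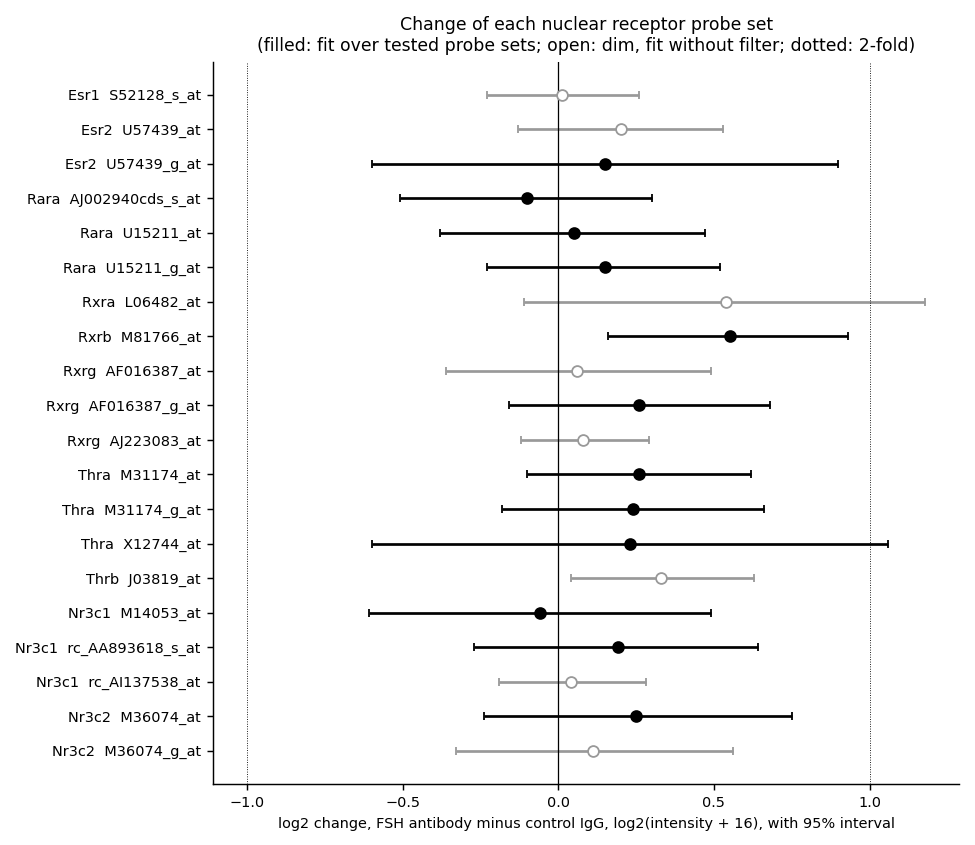
Log2 change of each nuclear receptor probe set, FSH antibody minus control IgG on the log2(intensity + 16) scale, with 95% intervals from limma over 2 arrays a group. Filled points come from the fit over tested probe sets, open points are dim probe sets from the fit without the filter, and dotted lines mark a 2-fold change. Rxrb stands farthest from 0 at 0.55, and the upper bounds reach past 1 for Thra X12744_at (1.06) and the dim Rxra (1.18).

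Rara, the retinoic acid receptor alpha gene, needed for normal spermatogenesis in mice, gave changes near 0 on all of its probe sets. U15211_at was at 465.4 and 560.4 on the antibody arrays, against 556.0 and 438.5 on the control arrays. Each group spanned nearly the same range, and the log2 change of 0.05 ± 0.19 had a 95% interval from −0.38 to 0.47. U15211_g_at, from the same sequence, was at 208.1 and 196.3 after the antibody and 185.3 and 176.2 in the controls, with separate groups, a log2 change of 0.15 ± 0.17 and an adjusted p of 0.877.

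The third Rara probe set, AJ002940cds_s_at, was at 85.7 and 104.8 on the antibody arrays, against 97.6 and 108.6 on the control arrays. Its groups overlapped and its log2 change was −0.10 ± 0.18, with a 95% interval from −0.51 to 0.30. The 3 Rara intervals together ran from −0.51 to 0.52 on the log2 scale, and none of them reached a 1.5-fold change.

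The estrogen receptors were dim or unsteady. Esr1, estrogen receptor alpha, was at 4.7 and 6.0 on the antibody arrays, against 5.3 and 5.0 on the control arrays (probe set S52128_s_at), below the filter on every array. Esr2, estrogen receptor beta, had 1 tested probe set, U57439_g_at, at 21.7 and 53.2 after the antibody and 43.8 and 19.5 in the controls. Each treatment thus had 1 high and 1 low array, and the gaps within groups, 0.88 after the antibody and 0.75 in the controls on the log2 scale, exceeded the log2 change of 0.15 ± 0.33. The other Esr2 probe set, U57439_at, was at 1.6 and 7.2 after the antibody and 2.3 and 0.9 in the controls, too dim to be tested.

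The corticosteroid receptors gave small differences of both signs. Nr3c1, the glucocorticoid receptor, was at 43.5 and 32.8 on the antibody arrays, against 52.7 and 29.8 on the control arrays, by probe set M14053_at. Both antibody arrays lay inside the range of the controls, and the log2 change was −0.06 ± 0.24 (95% interval −0.61 to 0.49). By rc_AA893618_s_at it was at 36.8 and 34.2 after the antibody and 31.1 and 27.5 in the controls, with separate groups, a log2 change of 0.19 ± 0.20 and an adjusted p of 0.871.

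The remaining Nr3c1 probe set, rc_AI137538_at, lay between 2.3 and 4.6 on all arrays. Nr3c2, the mineralocorticoid receptor, was at 29.7 and 41.0 on the antibody arrays, against 30.1 and 23.8 on the control arrays (M36074_at). The groups overlapped, since 1 antibody array was below 1 control array, and the log2 change was 0.25 ± 0.22 with an adjusted p of 0.844. Its companion from the same sequence, M36074_g_at, was too dim to be tested, at 11.3 and 19.0 after the antibody and 13.1 and 12.0 in the controls.

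Over the 8 dim receptor probe sets, all log2 changes in the fit without the filter were above 0, from 0.01 to 0.54, with a median of 0.10. Among all 3496 dim probe sets 72.6% were above 0, with a median of 0.09. Antibody replicate 2 was the highest array in 7 of the 8, against 50.5% of all dim probe sets. Of the 8, 3 were separate and higher (Rxra, Thrb and Rxrg AJ223083_at), a share of 37.5% where 36.1% of all dim probe sets were.

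**Figure D3:**
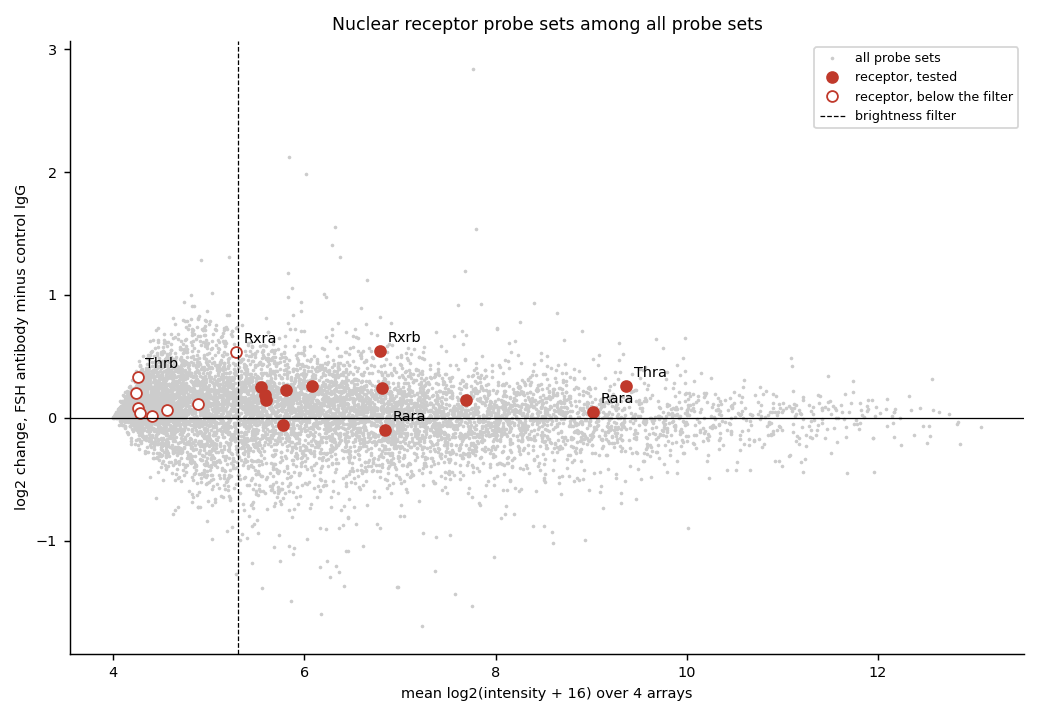
Log2 change (FSH antibody minus control IgG) against mean log2(intensity + 16) over the 4 arrays, for all 8740 probe sets that are not controls (grey) and the 20 receptor probe sets (red), from the fit without the filter. The dashed line is the brightness filter at 5.308. The receptors lie inside the grey cloud, with Rxrb at 0.55 the highest among the tested ones and Rxra at 0.54 just left of the filter.

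The 3 single-symbol probe sets whose pattern over the 4 arrays was nearest to that of Rxrb, among 4342 tested, were those of Amh, Cdh2 and Cyp1a2. The measure was the Euclidean distance between log2 values centred on their own mean. Amh, the anti-Müllerian hormone made by immature Sertoli cells, was at 753.6 and 758.1 on the antibody arrays and 544.4 and 498.4 on the control arrays, a distance of 0.040. Cdh2, the junction protein N-cadherin, was at a distance of 0.058, and Cyp1a2, a cytochrome P450, at 0.066. With 4 arrays many probe sets come close to any pattern, so these distances are a description only.

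Genes around these receptors were then described from lists, and 0 of their tested probe sets passed the adjusted threshold in either direction. Of 38 other nuclear receptors listed, 16 had tested probe sets, 21 in all, with a median log2 change of 0.09 and 14 above 0. Esrra, an orphan receptor of energy metabolism, was at 26.3 and 19.4 on the antibody arrays, against 45 and 40 on the control arrays, and its log2 change was −0.59 ± 0.21 (limma, adjusted p = 0.534). Nr4a1, an immediate early orphan receptor, gave −0.87 ± 0.35 on U17254_g_at (limma, adjusted p = 0.575) and 0.12 ± 0.22 on U17254_at, so its probe sets disagreed. U17254_g_at was at 79.5 and 24.9 after the antibody and 120.9 and 79.7 in the controls. Its groups were apart only by the step between 79.5 and 79.7.

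The coregulators, proteins that receptors recruit to activate or silence genes, had 8 tested genes with 10 probe sets, a median log2 change of 0.00 and 5 above 0. Ncoa1, a coactivator of steroid receptors, was at 28.7 and 15.7 on the antibody arrays and 47.6 and 33.7 on the control arrays, a log2 change of −0.58 ± 0.25. Ncoa4 gave −0.48 ± 0.20, with 81.7 and 101.9 after the antibody and 156.2 and 114.7 in the controls. Both had separate groups and lower values, with adjusted p of 0.605 for Ncoa1 and 0.581 for Ncoa4 by limma.

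Retinoid handling and response genes had 7 tested genes with 8 probe sets, a median of 0.10 and 4 above 0. Groups did not overlap in 6 of the 8 (75%), 4 higher and 2 lower, where 37.4% of all tested probe sets had separate groups in either direction. That share was 33.3% for the other nuclear receptors, 50% for the coregulators, 45.5% for the thyroid hormone list, 42.9% for the corticosteroid list and 41.7% for the sex steroid list. Aldh1a1, an enzyme that makes retinoic acid from retinaldehyde, was at 2813.3 and 2258.0 on the antibody arrays, against 2021.6 and 1744.2 on the control arrays. Its log2 change was 0.42 ± 0.17, with an adjusted p of 0.575. Rbp4, the retinol carrier of blood, gave 0.54 ± 0.20 and 0.30 ± 0.20 on its probe sets, with separate groups on both and adjusted p of 0.552 and 0.774.

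Thyroid hormone handling and response genes had 6 tested genes with 11 probe sets, a median of 0.03 and 6 above 0. Klf9, a transcription factor induced by thyroid hormone and glucocorticoid, was at 276.6 and 265.7 after the antibody and 212.7 and 225.7 in the controls on D12769_g_at, a log2 change of 0.29 ± 0.17 (adjusted p = 0.713), and gave 0.10 ± 0.17 on D12769_at. Tshr, the thyrotropin receptor, gave 0.33 ± 0.17 with an adjusted p of 0.682. In both genes the antibody arrays were above the control arrays.

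Corticosteroid handling, chaperone and response genes had 8 tested genes with 14 probe sets, a median of 0.09 and 12 above 0. Scnn1g, a subunit of the epithelial sodium channel that aldosterone regulates, was at 43.8 and 37.5 on the antibody arrays and 26.3 and 21.2 on the control arrays, and its log2 change was 0.51 ± 0.21 (adjusted p = 0.575). Fkbp4, a chaperone partner of steroid receptors, gave −0.37 ± 0.18 on rc_AI136977_at and −0.04 and 0.04 on its other probe sets.

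Sex steroid handling and response genes had 7 tested genes with 12 probe sets, a median of 0.04 and 8 above 0. Shbg, the androgen-binding protein of Sertoli cells, was at 530.5 and 563.9 on the antibody arrays, against 890.7 and 857.2 on the control arrays. Its log2 change was −0.66 ± 0.16 and its adjusted p 0.218. Hsd17b4, a peroxisomal enzyme that inactivates estradiol, gave 0.35, 0.21, 0.13 and −0.24 on its 4 probe sets, and none passed.

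**Figure D4:**
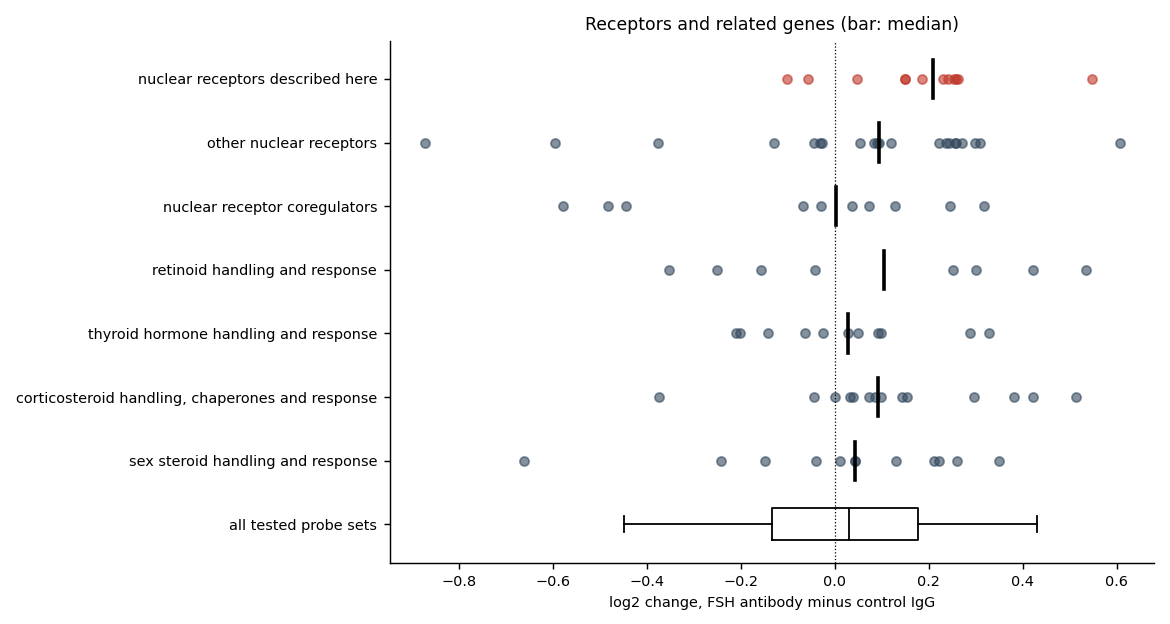
Log2 change (FSH antibody minus control IgG) of the tested probe sets of the receptors described here (red) and of 6 lists of related genes (dark), each point 1 probe set and each black bar the list's median. The box at the bottom gives the quartiles of all 5244 tested probe sets, with whiskers at the 5th and 95th percentiles. The receptors' median is 0.21, and the medians of the other lists lie between 0.00 and 0.10.

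Markers of the cell types that a testis sample holds were read on the same arrays as summed intensities of all probe sets of each list, and no marker probe set was listed at 0. Such a sum leans on its brightest probe sets. Macrophage markers (6 genes on the array) summed to 422 and 579 on the antibody arrays, against 368 and 409 on the control arrays, and endothelial markers (5 genes) to 339 and 413, against 280 and 313. Both sums were higher on each antibody array than on either control array. So was the sum over the 20 receptor probe sets, at 2000 and 2140 after the antibody and 1880 and 1710 in the controls. The same order held for the ovary and oocyte markers. It held for the other nuclear receptors, at 2490 and 2650 against 2450 and 2260. It also held for the retinoid list, at 3700 and 3030 against 2910 and 2580. Most of each retinoid sum was Aldh1a1, at 2813.3 and 2258.0 against 2021.6 and 1744.2, and the order rested on it. Of the 8 tested retinoid probe sets, only 4 had a change above 0. The order of the macrophage sums rested on Lyz2, at 120.8 and 138.1 after the antibody and 100.1 and 62.8 in the controls. Of the 8 tested macrophage probe sets, from 5 genes, 3 were separate and higher and 1 was separate and lower. Over all tested probe sets those shares were 21.9% and 15.5%. Markers of meiotic and later germ cells (14 genes) summed to 2040 and 1390 after the antibody and 1570 and 2700 in the controls, so arrays of 1 treatment lay farther apart than the group means did. The sums for Sertoli cell markers were 13200 and 13700 after the antibody and 14000 and 13600 in the controls, and for spermatogonia 4110 and 4060 against 4180 and 3980. Clu alone gave 6439.6 and 7459.2 of the Sertoli sums after the antibody and 6776.2 and 6770.0 in the controls. Of the 18 tested Sertoli probe sets, 4 were separate and higher and 4 were separate and lower. Leydig cell markers summed to 2100 and 2280 after the antibody and 2660 and 2710 in the controls, peritubular myoid markers to 6140 and 4570 against 5400 and 5780, and erythroid markers to 1860 and 2190 against 2060 and 3570. The Leydig probe sets went both ways: of 9 tested, 3 were separate and higher and 4 were separate and lower. Epididymis markers summed to 390 and 481 after the antibody and 430 and 503 in the controls. Called marker genes were Testin of Sertoli cells (1.56 ± 0.18, adjusted p = 0.0153 by limma), Star of Leydig cells (−1.49 ± 0.23, adjusted p = 0.0423, on 1 of its 2 tested probe sets) and Alas2 of erythroid cells (−1.38 ± 0.21, adjusted p = 0.0423). No probe set on the array, these included, passed with quantile normalization, with no filter, with no moderation of the variances or without either of the control arrays. The part of these cell types in the receptors' values was not tested.

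The brightest tested gene of the Leydig cell markers was Cyp17a1, at 1361.0 and 1653.3 after the antibody and 1730.4 and 1651.1 in the controls. For meiotic cells it was Sycp3, at 795.0 and 574.2 against 750.6 and 922.3. These values were not used to tell testis from ovary. The brightest tested gene of each remaining marker list was Clu for Sertoli cells (log2 change 0.03 ± 0.15), Uchl1 for spermatogonia (0.14 ± 0.16, 0.08 ± 0.17 and −0.05 ± 0.17 on its probe sets), Acta2 for peritubular myoid cells (0.12, −0.14 and 0.05, each ± 0.23) and Lyz2 for macrophages (0.60 ± 0.22). It was Flt1 for endothelial cells (0.40 ± 0.19), Hbb for erythroid cells (−0.43 ± 0.25), Zp2 for oocytes (0.19 ± 0.17) and Cst8 for the epididymis (−0.13 ± 0.18 and −0.17 ± 0.19). None of these passed. Oocyte and ovary markers (4 genes on the array) summed to 167 and 183 on the antibody arrays and 143 and 142 on the control arrays. RNA integrity was read from the 3′ to 5′ log2 difference of control transcripts. For beta-actin it was 1.15 ± 0.07 after the antibody and 1.00 ± 0.20 in the controls, and for GAPDH −0.07 ± 0.01 and −0.05 ± 0.15 (SD, n = 2 each). By a two-sided exact permutation test of 2 arrays against 2, whose smallest possible p is 0.333, p was 0.667 (beta-actin) and 1 (GAPDH).

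**Figure D5:**
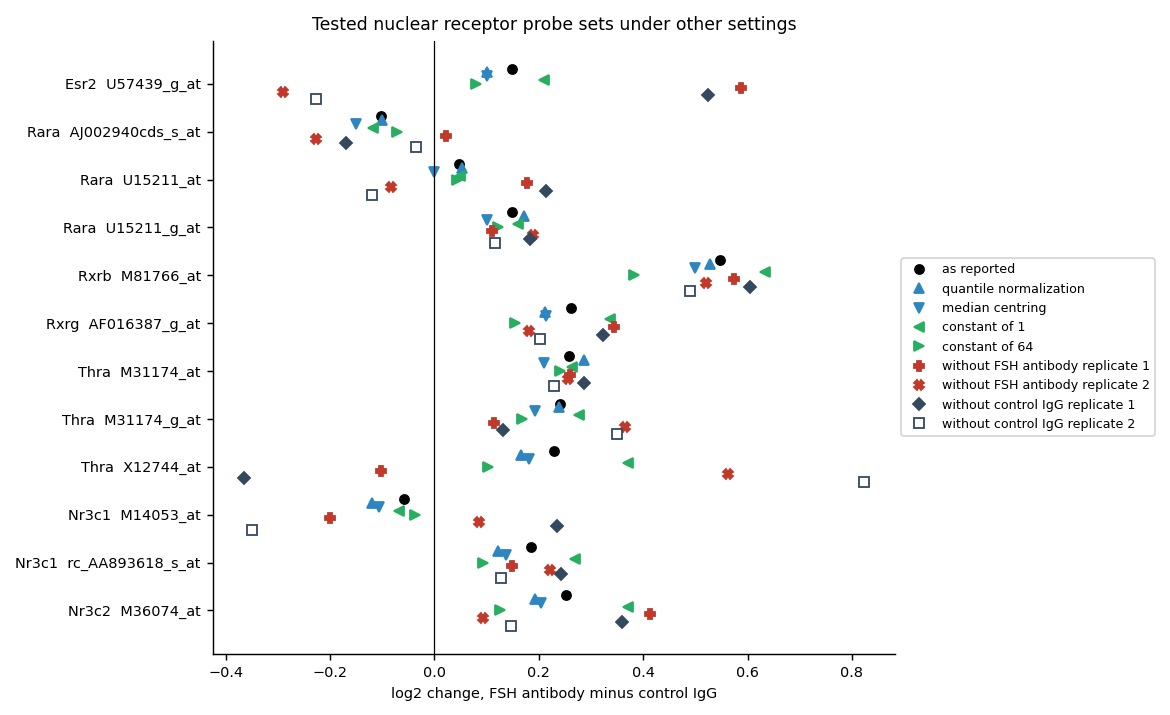
Log2 change (FSH antibody minus control IgG) of the 12 tested receptor probe sets as reported and under 8 of the other settings, including each array left out in turn. Rxrb stays between 0.38 and 0.63, and Thra X12744_at runs from −0.36 to 0.82 depending on which array is left out.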

How the data were processed

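Testis RNA from 2 FSH antibody and 2 control IgG samples was read on 4 arrays. Per the labels' protocols, biotin-labelled total RNA was hybridised by the standard Affymetrix procedure. The deposited values are linear intensities, 1 for each of 8799 probe sets; the sources used here do not give their software or scaling method, and no detection calls were used. Leaving out 2% of probe sets at each end, the mean was 125.2 on every array, so each array had been scaled before deposit, and background correction is unknown.

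From the table, 59 control sets were dropped. Symbols came from the platform annotation and were updated through Entrez identifiers with RefSeq of GRCr8 (6994 updated, 24 kept); 308 probe sets had several symbols and 1473 none. Values were analysed as log2(intensity + 16), and a probe set was tested if its mean log2 value reached the 40th percentile over 8740. The antibody group was compared with the control group in limma 3.58.1 (lmFit, then eBayes with a trend on intensity; R 4.3.3). P-values were two-sided and adjusted by Benjamini-Hochberg over all 5244 tested probe sets. Code was tested on simulated data. The promoter letters come from RefSeq, GRCr8.

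Named genes were all members, per related list any called gene and the 2 genes with the smallest p, per marker list any called gene and the brightest, and the 3 probe sets nearest to the member with the largest change. Genes of the marker lists were not used to settle the tissue. The members and lists were chosen with earlier results of these data known. Alternatives were quantile normalization, median centring, a constant of 1 or 64, no filter or the 60th percentile, no trend, no moderation, leaving out each array, and the replicate number as a block. Deviations from the group means of equal replicate numbers correlated at 0.002 over tested probe sets. This gave no sign of pairing over the array but cannot exclude it for some probe sets.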

Additional observations from a re-analysis of the deposited data

How the results depend on the processing

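No receptor probe set passed under any of the 13 alternatives, with a smallest adjusted p of 0.261 by limma, and 7 of the 12 tested ones kept their direction in every one that tested them. Over all probe sets 14 were called, against 0 with quantile normalization (424 at an unadjusted p under 0.05), 4 with median centring, 0 with no filter (702), 0 with no moderation (352) and 39 with the replicate block, where no receptor passed either. Leaving out 1 array gave 0 to 153 calls: 153 without antibody replicate 1, 93 without antibody replicate 2, and 0 without control replicate 1 (364 at an unadjusted p under 0.05) or control replicate 2 (267). A lone array is then assumed to vary like the other group. The receptors' median of 0.21 was 0.11 with a constant of 64, which shrinks all changes, and 0.15 to 0.24 with 1 array left out. Without control replicate 2, 13 receptor probe sets passed the filter, so the median of 0.15 there was over 13. Receptor probe sets with separate groups were 6 of 12, where 37.4% of all tested probe sets were separate. A lone array separates more easily, so such counts with 1 array left out were not read. Directions turned for Rara U15211_at with median centring (−0.0007), without antibody replicate 2 (−0.08) and without control replicate 2 (−0.12), and for Rara AJ002940cds_s_at without antibody replicate 1 (0.02). They turned for Thra X12744_at without antibody replicate 1 (−0.10) and control replicate 1 (−0.36), for Esr2 U57439_g_at without antibody replicate 2 (−0.29) and control replicate 2 (−0.23), and for Nr3c1 M14053_at without antibody replicate 2 (0.09) and control replicate 1 (0.23). With 1 array left out these 5 ran from −0.12 to 0.21, −0.23 to 0.02, −0.36 to 0.82, −0.29 to 0.59 and −0.35 to 0.23, in that order. The cause was not tested. Pairing by replicate number was not established, so the block result is only a repeat fit. Without detection calls, how far the dim receptors stand above background is not known.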
